A study of Rattus norvegicus with 12 samples.

Results

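The refluxed esophagus of the rat Barrett's esophagus (BE) model was described here by its N6-methyladenosine (m6A) peaks. The BE group comprised 3 input libraries and their 3 m6A immunoprecipitation (IP) libraries, 6 of the 12 samples in the study. BE rats had an esophagoduodenostomy: the esophagus was surgically connected with the duodenum, whose contents then flow back into it, and the comparison group (NC) was untreated esophagus with the same 3 input and 3 IP libraries. Of 17450 genes in the count table, 12762 gene symbols had a median of at least 1 CPM (counts scaled to the library total) over the 3 BE input libraries and are called expressed. A gene was called methylated when a peak carried its name in 3 of 3 BE lists and unmethylated when none of the 3 lists named it. By this rule 7181 genes (56.3%) were methylated, 3729 (29.2%) were unmethylated and 1852 had a peak in 1 or 2 lists.

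m6A is a methyl mark on adenosine inside mRNA, placed mostly by a nuclear complex built around METTL3 and METTL14 and removed by the demethylases FTO and ALKBH5. Proteins of the YTH family bind the mark and affect splicing, export, translation and decay of the transcript. In mammalian mRNA the mark is known to collect near stop codons and in long internal exons, and transcripts of housekeeping genes are known to carry little of it. In MeRIP-seq, fragmented RNA is pulled down with an antibody to m6A, and a peak is a stretch where the pulled-down RNA exceeds the input RNA from the same tissue. The peak lists give each peak's bounds, its length, a fold enrichment over input and a score, all set by the authors. No genome build is given in the sources used here for the peak coordinates, and no genome sequence of that build was at hand, so coordinates are printed as deposited, without sequence and without a place in the coding region or untranslated regions.

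The tissue label was checked against marker genes. Squamous epithelium dominated all 3 BE inputs: 20 epithelial keratins summed to between 60942 and 64510 CPM, and 34 genes of the cornified envelope and barrier to between 22035 and 25577 CPM. Of 21 genes listed for intestinal columnar epithelium, 8 or 9 had no count in each BE library, and Vil1, Muc2, Agr2, Muc13 and Clca1, of its cell surface and mucus, had none in any of the 3. The list as a whole summed to 2404, 767 and 540 CPM in BE and to between 268 and 333 CPM in NC. Apob, also a liver gene, gave 1508 CPM of the first value, and Rbp2, a retinol-binding protein, stood at 304, 405 and 260 CPM in BE and 65.0, 67.4 and 87.0 CPM in NC. Epcam had 167, 192 and 141 CPM in BE and 68.1, 64.3 and 68.5 CPM in NC. Reg3b had 1.26, 1.54 and 0.860 CPM in BE and no count in NC. By edgeR's quasi-likelihood test with Benjamini-Hochberg adjustment, 4 of the 8 expressed members were higher in BE and 3 lower. Over all 13761 genes tested, 21.8% were higher and 21.8% lower. The input libraries held between 11213531 and 17471748 counts. BE replicate 1 stood apart: 59 hepatocyte genes summed to 17750 CPM there, whereas the other BE libraries held 227 and 233 CPM and the NC libraries between 181 and 248 CPM. Interferon-response genes moved with it, at 6520 CPM summed over 29 genes in BE replicate 1 and 556 and 482 CPM in the other BE libraries. Nothing in the labels ties the replicates to different rats, so any p-value rests on variation among these libraries that could be technical only. In bulk tissue, fewer cells of a type and less RNA per cell cannot be told apart.

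Whether a transcript had a peak in BE followed its abundance, up to a point. The expressed genes were ranked by median BE CPM and divided into 10 bins. The methylated share went from 29.8% in the lowest bin (1.03 to 2.64 CPM) to 65.8% in the ninth (80.3 to 151 CPM), and was 56.8% in the tenth (151 to 27564 CPM). Unmethylated genes made up 53.2% of the lowest bin, between 21.2% and 22.6% of bins 6 to 9, and 33.1% of the highest. All 3 lists had the same shape: in the top bin 61.5%, 61.2% and 62.4% of genes had a peak in replicates 1, 2 and 3, below the 71.4%, 71.2% and 72.4% of the ninth. Cytosolic ribosomal proteins (61 genes) and mitochondrially encoded genes (10 genes) sat in the top bin. Without both, the methylated share of the top bin was 59.8% and the unmethylated share 30.4%, so the step down from the ninth bin was smaller but present. None of the lists held a peak on the mitochondrial chromosome or on Y, so the absence of peaks in mitochondrially encoded transcripts cannot be read.

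**Figure D1:**
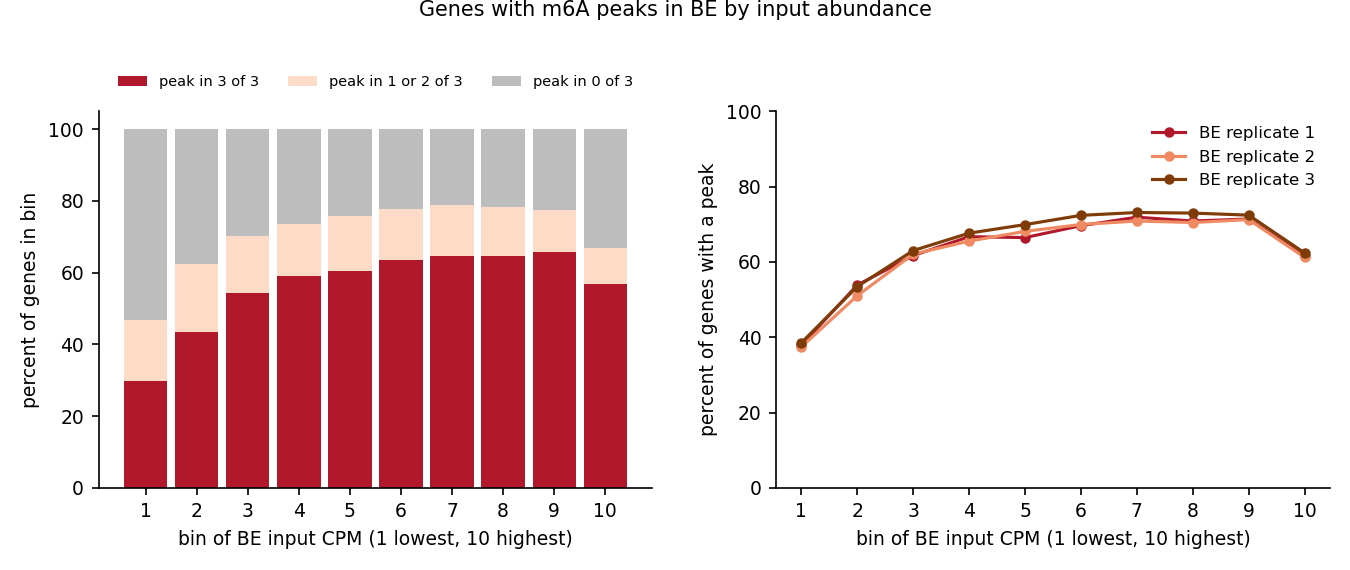
Left, the percent of expressed genes with a peak in 3 of 3, 1 or 2 of 3 or 0 of 3 BE lists (y axis) in each of 10 bins of median BE input CPM (x axis). Right, the percent of genes in each bin with a peak in each BE list, one line per replicate. The methylated share climbs from 29.8% to 65.8% over bins 1 to 9 and is 56.8% in bin 10.

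Among the 100 genes with the highest CPM in BE, 43 were methylated and 49 unmethylated, 8 of the unmethylated ones being mitochondrially encoded. CPM is not divided by transcript length here, so the ranking is by reads and not by molecules. Krt13, a keratin of the suprabasal layers of stratified epithelium without a cornified surface, had 23786, 23194 and 26650 CPM in BE replicates 1, 2 and 3 and no peak in any list. Ada (adenosine deaminase), Serpinb3a and Serpinb12 (intracellular protease inhibitors), Krt14 (the basal-layer keratin) and Eef1a1 (the elongation factor that carries aminoacyl-tRNA to the ribosome) likewise had no peak, with Ada at 7341, 4695 and 6527 CPM and Eef1a1 at 3644, 4484 and 3629 CPM. On the other side stood Dsp, encoding desmoplakin, which ties desmosomes to keratin filaments, at 8908, 9803 and 10804 CPM with 2, 1 and 3 peaks. Its best peak had the same bounds in each list, chr17:29202519-29205752, a length of 3234 nt and fold enrichments of 59.9, 65.2 and 58.9. Rptn (repetin, an envelope protein), Dsg1 (desmoglein 1), Fabp5 (a fatty-acid-binding protein of keratinocytes) and Perp (a desmosomal membrane protein) had 1 peak in each list. Actb (cytoplasmic actin) did too, with folds of 6.06, 6.68 and 7.82.

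Peak number grew with abundance while peak length shrank. Methylated genes had a mean of 2.47, 2.35 and 2.46 peaks in BE replicates 1, 2 and 3, and 39.9%, 41.1% and 38.2% of them had a single peak. From the lowest to the highest bin the mean went from 1.42 to 3.46 peaks in replicate 1, from 1.41 to 3.23 in replicate 2 and from 1.46 to 3.33 in replicate 3. The median peak length went the other way, from 588 to 190 nt in replicate 1, 587 to 200 nt in replicate 2 and 562 to 194 nt in replicate 3. The percentile of a gene's best peak, its fold-enrichment rank among all peaks of the same list, had a median of 58.8, 62.5 and 63.9 in the lowest bin and 77.3, 75.0 and 75.7 in the highest. Across peaks, longer peaks tended to have higher folds (Spearman's rho of 0.34, 0.37 and 0.36 in the 3 lists, a description over peaks that share a library). Between 81.0% and 85.5% of the peaks in each BE list had exactly the same bounds as a peak in another of the deposited lists. Of 111 named genes with a best peak in all 3 BE lists, 74 had the same bounds of that peak in all 3.

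**Figure D2:**
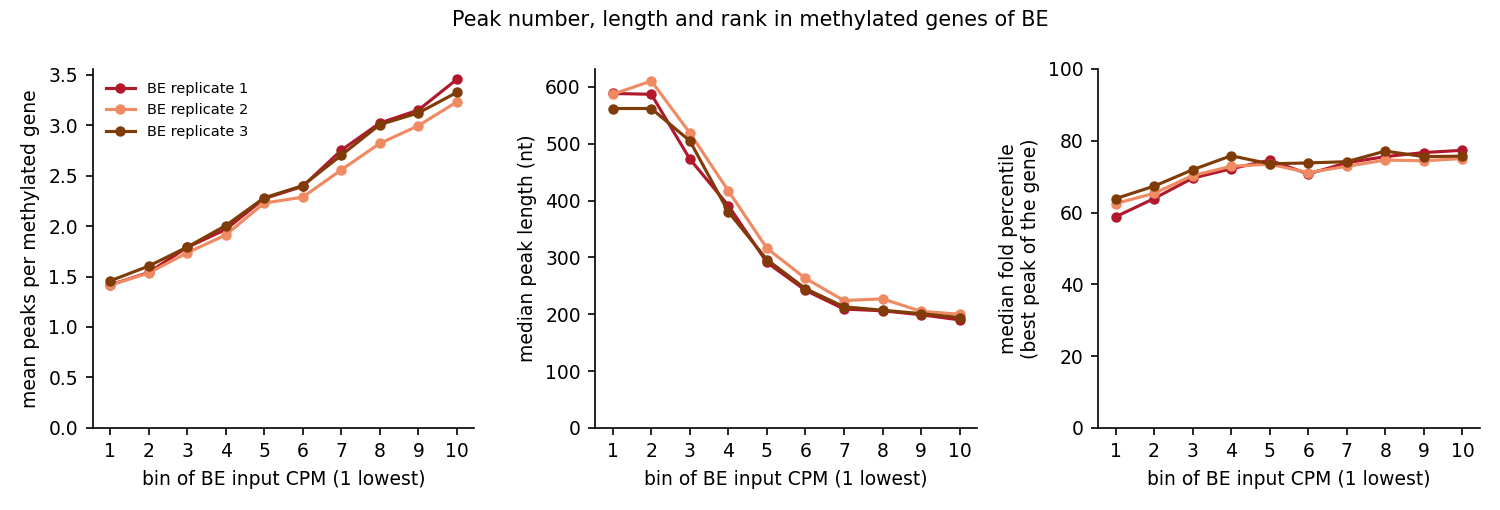
Mean peaks per methylated gene (left), median peak length in nt (middle) and median percentile of each gene's best fold enrichment (right) on the y axes, against bins of median BE input CPM, for the 3 BE lists. Peak number rises to 3.46, 3.23 and 3.33 in the top bin while length falls to 190, 200 and 194 nt.

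Most peaks recurred between replicates. Of the peaks in BE replicates 1, 2 and 3, 73.0%, 77.6% and 73.4% overlapped a peak by at least 1 bp in each of the other 2 lists. These shared peaks had median folds of 10.8, 11.6 and 10.9 and a median length of 354 nt in each list. Peaks not shared had median folds of 5.43, 5.73 and 5.36 and lengths of 170, 185 and 168 nt. Single genes held far more peaks than the mean. Akap9, an anchoring protein of the Golgi and centrosome, had 24, 22 and 25 peaks. Trdn, encoding triadin of the muscle calcium-release complex, had 23, 20 and 28 peaks at only 19.8, 11.2 and 15.0 CPM. Dst (dystonin, a giant plakin), Eif4g3, Tnrc18, Neb (nebulin) and Pcnt (pericentrin) were also among the 8 genes with the most peaks, with between 12 and 23 in each list.

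Enrichment was strongest elsewhere. Ahnak, a giant scaffold protein, held the top peak of replicates 2 and 3, with folds of 800.18, 1363 and 840 at chr1:232122559-232122687, a 129-nt stretch with the same bounds in each list. Arih2, a ubiquitin ligase, had folds of 245, 339 and 337 at chr8:116790834-116790857, a stretch of 24 nt. Snrnp70 (a protein of the U1 splicing particle), Eif3j and Eif5b (translation initiation factors), Ppp1r9b (a phosphatase-targeting protein), Egln1 (the oxygen-sensing prolyl hydroxylase) and Scand1 followed, each with a mean percentile over 99.8. Scand1 was at 1.03, 1.03 and 0.738 CPM, next to the expression floor, and its folds of 165, 265 and 201 rest on few input reads. Of these 8 genes only Ahnak was also among the 10 methylated genes with the highest CPM.

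To ask which transcripts carried peaks at matched abundance, 31 lists of genes with at least 5 expressed members were each set beside all expressed genes in the members' own abundance bins. The matched share ran from 43.7% to 63.4%. In 9 lists the methylated share was at least 10 percentage points above the matched share, in 13 lists at least 10 points below, and in 9 within 10 points. Each of those 22 lists stood on the same side in all 3 BE lists taken singly. The methylated class was built from the same 3 BE lists, so this agreement is no independent support. The matching is by CPM only, and transcript length was not matched.

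**Figure D3:**
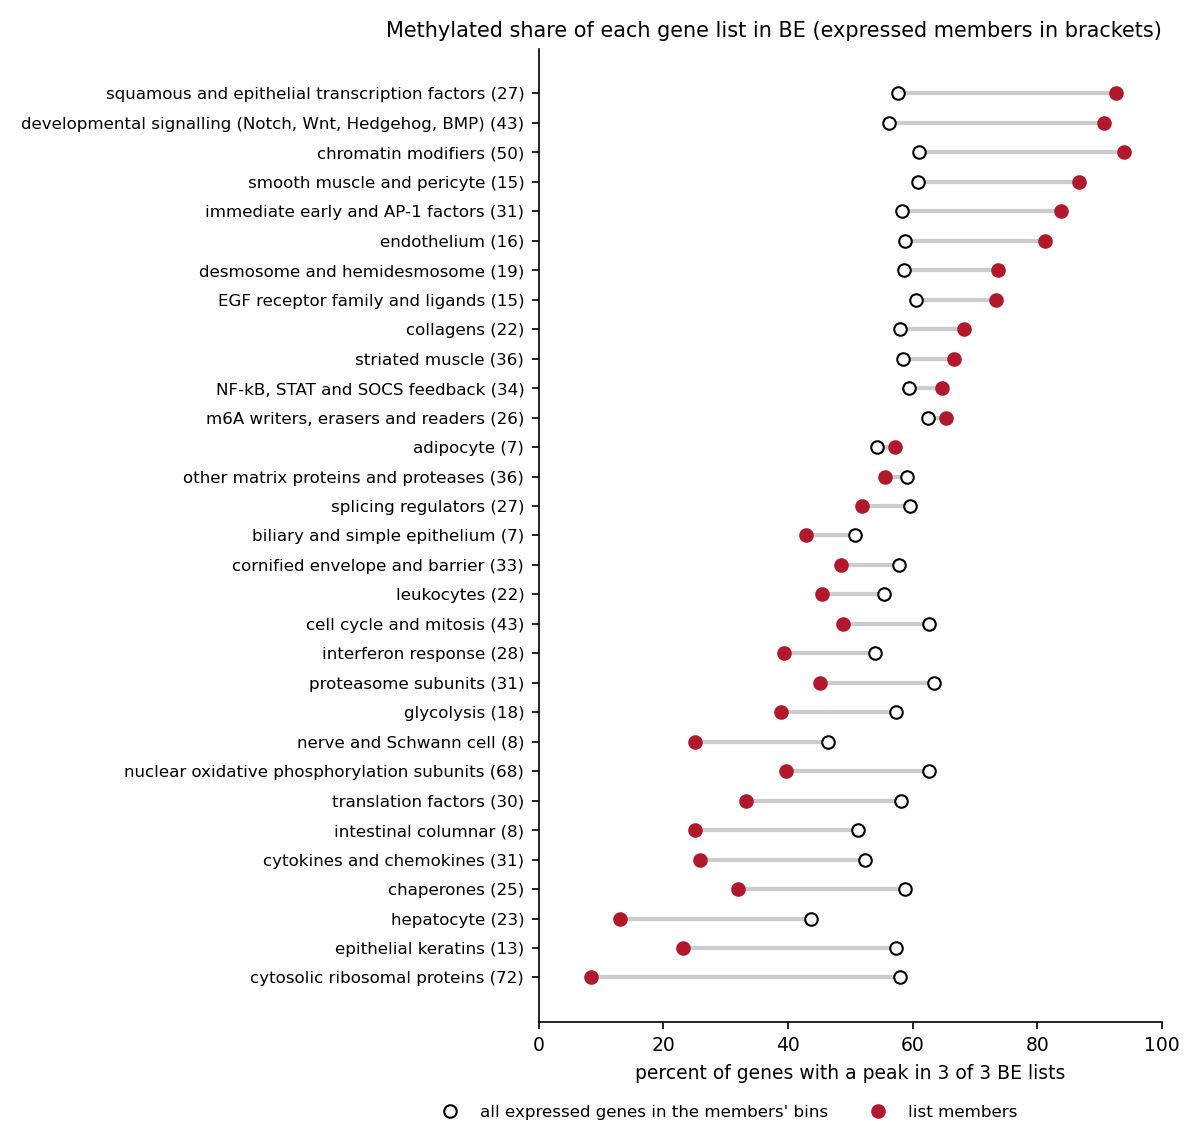
Percent of genes with a peak in 3 of 3 BE lists (x axis) for the expressed members of 31 gene lists (filled) and for all expressed genes in the same abundance bins (open), with the number of expressed members in brackets. Squamous transcription factors, developmental signalling genes and chromatin modifiers lie above 90% at the top, and cytosolic ribosomal proteins at 8.33% at the bottom.

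The squamous epithelium split by the kind of protein. Keratins, the intermediate filaments of epithelial cells, were mostly without consistent peaks: 3 of 13 expressed keratins were methylated (23.1%, matched 57.3%). Krt13, Krt14, Krt5 and Krt15 and the injury keratin Krt16 had none, while Krt78, Krt80 and Krt23 had peaks in each list. Krt5 had 1729, 2147 and 1945 CPM with no peak, and Krt78 had 753, 567 and 746 CPM with 2, 3 and 1 peaks at folds of 24.3, 28.3 and 52.7. Krt4 had a peak in replicates 1 and 3 only, and with 2 of 3 lists sufficing the keratin share differed from the matched one by -8.81 points, against -34.3 with 3 of 3. Genes of the cornified envelope, the crosslinked shell of the dead surface cell, were methylated in 16 of 33 cases (48.5%, matched 57.9%), a difference of -9.40 points that was -13.7 with a floor of 5 CPM. Rptn, Sprr3 and the plakin Ppl were among the methylated ones. Tgm1, the transglutaminase that crosslinks the envelope, Dmkn, Serpinb5 and the kallikreins Klk10 to Klk13 had no peak in BE. Other kallikreins had peaks: Klk7 and Klk8 in each list and Klk6 in replicate 1 only.

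Desmosomes and hemidesmosomes, which join cells to each other and to the basement membrane, were more often methylated, at 14 of 19 genes (73.7%, matched 58.6%). Within them the cadherins Dsg1, Dsg2, Dsg3, Dsc2 and Dsc3 each had peaks in 3 of 3 lists, as did Dsp, Plec and Dst. The armadillo proteins of the plaque, Jup (plakoglobin), Pkp1 and Pkp3, had none, with Jup at 1028, 1294 and 1246 CPM and Pkp1 at 2200, 2490 and 2640 CPM. Their relative Ctnnb1 (beta-catenin) also lacked a peak in BE at 338, 412 and 361 CPM, whereas Pkp4 had 8, 9 and 10 peaks.

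Transcription factors of the squamous lineage were nearly all methylated, 25 of 27 (92.6%, matched 57.7%). They included Tp63, the master regulator of stratified epithelium, with 4, 1 and 1 peaks at 666, 794 and 775 CPM. Klf5, a factor of proliferating epithelium, had 2 peaks in each list, and Grhl2, a regulator of epithelial junctions, had 13, 11 and 8. The strongest folds belonged to Cebpd (277, 158 and 133), at 7.67, 20.2 and 16.3 CPM. Pitx1 (57.1, 98.0 and 75.9) and Barx2 (71.0, 77.2 and 50.3), both homeobox factors, also had high folds. Hopx, at 501, 371 and 395 CPM, and Sox2, at 10.4, 10.2 and 8.54 CPM, were the 2 exceptions, with no peak in any BE or NC list.

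Chromatin modifiers, the enzymes that write, erase and read histone marks or remodel nucleosomes, reached 47 of 50 (94.0%, matched 61.0%), and their methylated members averaged 5.52 peaks against 3.10 in methylated genes of the same bins. Nsd1, a histone H3 methyltransferase, had 7, 5 and 6 peaks at 499, 498 and 492 CPM, Ash1l had 6, 6 and 7, and Chd4, a nucleosome remodeler, had 3 in each list. Ezh1, a catalytic subunit of Polycomb repressive complexes, was the single unmethylated member at 69.0, 52.6 and 55.6 CPM. Ezh2 and Ehmt2 were called in 1 or 2 lists.

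Developmental signalling genes (Notch, Wnt, Hedgehog and BMP) were methylated in 39 of 43 cases (90.7%, matched 56.3%). The receptors Notch1 to Notch4 and the ligands Jag1, Jag2, Dll1 and Dll4 had peaks in 3 of 3 lists without exception. Jag1 had its best peak at chr3:136558688-136560695, 2008 nt long, with folds of 71.3, 44.6 and 45.2. Ctnnb1, Fzd7 (a Wnt receptor) and Tcf7l1 (a Wnt-pathway transcription factor) were unmethylated and Gli1 was called in part of the lists. Immediate early genes, which are induced within minutes of a stimulus and whose mRNAs decay fast, stood at 26 of 31 (83.9%, matched 58.3%). Egr1 had 1 peak in each list at 87.2, 126 and 124 CPM, and Jun, Junb, Fos, Fosl1, Ier2 and Ier5 had peaks throughout. Atf4, the stress-response factor whose translation is controlled by upstream reading frames, had none at 201, 223 and 193 CPM.

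Of the 31 lists, cytosolic ribosomal proteins had the lowest methylated share. Only 6 of 72 expressed cytosolic ribosomal proteins were methylated (8.33%, matched 58.0%), namely Rpl12, Rpl13a, Rpl29, Rpl35, Rps28 and Rps29, and 55 were unmethylated. Rpl7 had 1333, 1508 and 1593 CPM without a peak, and Rps29 had 497, 499 and 422 CPM with a peak of 8.55, 9.05 and 11.1-fold. The share was low in each list alone, at 15.3%, 13.9% and 19.4%. Ribosomal protein genes have many near-identical pseudogenes, so their counts and peaks are uncertain. Translation factors were methylated in 10 of 30 cases (33.3%, matched 58.1%). Eef1a1, the poly(A)-binding protein gene Pabpc1 and Eif4g2 had no peak, while Eef2 had 1 in each list. Those that were methylated had many peaks, 4.80 on average against 3.29 matched. Eif3a, a scaffold subunit of the initiation factor eIF3, had 6, 9 and 9, with folds of 121, 169 and 138.

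Lists of energy metabolism and protein quality control also lay below their matched shares. Nuclear-encoded subunits of oxidative phosphorylation were methylated in 27 of 68 cases (39.7%, matched 62.6%), glycolytic genes in 7 of 18 (38.9%, matched 57.4%), proteasome subunits in 14 of 31 (45.2%, matched 63.4%) and chaperones in 8 of 25 (32.0%, matched 58.8%). Gapdh, Eno1 and Ldha of glycolysis had no peak, with Eno1 at 782, 1073 and 852 CPM. Slc2a1, the glucose transporter GLUT1, and Pgam1 had peaks in 3 of 3. Atp5b, a catalytic subunit of ATP synthase, had none at 778, 949 and 791 CPM. The endoplasmic reticulum chaperone Hspa5 had 1 peak in each list at 29.7, 38.6 and 32.4-fold, whereas the cytosolic chaperones Hsp90ab1 and Hsp90aa1 and the mitochondrial Hspd1 had none.

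Secreted inflammatory signals and their signal transducers differed. Cytokines, chemokines and related mediators were methylated in 8 of 31 cases (25.8%, matched 52.3%). Il36g, an epithelial cytokine of the interleukin-1 family, had 236, 297 and 231 CPM without a peak. Ptgs2, the inducible cyclooxygenase, had 182, 278 and 397 CPM without one. Il1a, Il1b, Il1rn, Il36a, Cxcl1 and Cxcl2 had none in BE either. Peaks in 3 of 3 lists were found in Csf1, Ccl2, Cxcl12, Cxcl14, Cxcl6, Lif, Osm and S100a9. S100a9 and S100a8, whose proteins form the calprotectin dimer of neutrophils and stressed keratinocytes, diverged. S100a9 had 1 peak in each list at 227, 409 and 57.7 CPM, and S100a8 had none at 166, 306 and 38.7 CPM. The S100a9 peak lay at chr2:209531412-209531722 in replicates 1 and 2 but at chr2:209533582-209533744 in replicate 3.

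NF-kB, STAT and SOCS genes, which carry and damp cytokine signals inside the cell, were near the matched share, 22 of 34 (64.7%, matched 59.4%). Among NF-kB subunits Rel, Rela and Relb were methylated, and Nfkb1 and Nfkb2 were not. The inhibitors split: Nfkbia, Nfkbid and Nfkbiz were unmethylated, whereas Nfkbib had 3 peaks in each list and Nfkbie had 4, 4 and 3. The SOCS feedback inhibitors Socs2, Socs3, Socs4, Socs5, Socs6 and Socs7 and their relative Cish were methylated throughout. Jak2 had 3, 4 and 4 peaks, and Jak1, at 377, 331 and 289 CPM, had none. EGF receptor family members and ligands were methylated in 11 of 15 cases (73.3%, matched 60.6%). The ligands split: Hbegf had 4, 2 and 2 peaks and Nrg1 had 4, 3 and 3, while Areg and Ereg had none at 44.5, 111 and 104 CPM and at 58.0, 82.2 and 77.9 CPM. Egfr, the receptor that Hbegf, Areg and Ereg share, had 3, 2 and 2 peaks.

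The genes that write, erase and read m6A were themselves methylated in 17 of 26 cases (65.4%, matched 62.5%), within 10 points of the matched share. Counting only peaks above each list's median fold, they lay 15.9 points above it. Within the list the writer complex and its partners were all methylated: Mettl3, Mettl14, Wtap, Virma (listed as RGD1559904), Rbm15, Rbm15b, Zc3h13 and Cbll1. Zc3h13 had 15, 14 and 14 peaks, with best folds of 93.6, 81.7 and 109. Mettl3 had 2 in each list at 22.7, 22.8 and 17.8 CPM. Both erasers, Fto and Alkbh5, and the YTH readers Ythdf1, Ythdf2, Ythdf3 and Ythdc1 were methylated too. The YTH reader Ythdc2 had 0, 1 and 1 peaks and Igf2bp2 had 0, 0 and 1. Mettl16 was below the expression floor, with 2, 0 and 1 peaks. Elavl1, Fmr1 and Hnrnpc, RNA-binding proteins linked to m6A, and Mettl5 and Zcchc4, which methylate ribosomal RNA, had no peak. Methylated members had a median best percentile of 90.4, against 74.0 for methylated genes of the same bins. Splicing regulators were methylated in 14 of 27 cases (51.9%, matched 59.6%).

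Stromal and muscle genes had shares above or near the matched level. Endothelial genes were methylated in 13 of 16 cases (81.2%, matched 58.7%) with none unmethylated. Smooth muscle and pericyte genes were methylated in 13 of 15 (86.7%, matched 60.8%), all but Tagln and Cnn1, which encode small actin-binding proteins. Collagens reached 15 of 22 (68.2%, matched 57.9%). Col3a1 had 996, 1176 and 1010 CPM without a peak, whereas Col1a1, the partner of Col1a2 in type I collagen, had 1 weak peak in each list at 5.27, 4.65 and 4.52-fold. In replicate 2 the Col1a1 peak lay at other bounds than in replicates 1 and 3. Methylated collagens had a median best percentile of 46.9, below the 74.5 of methylated genes in the same bins. Counting only peaks above each list's median fold, the collagen share differed from the matched one by -10.9 points, against 10.2 with all peaks. Fibronectin (Fn1), at 751, 726 and 691 CPM, had no peak, and Tnc (tenascin C, a matrix protein of wounds) had 8, 5 and 6. Striated muscle genes were methylated in 24 of 36 cases (66.7%, matched 58.4%), among them Ttn (titin) with 6, 5 and 5 peaks. Leukocyte genes were methylated in 10 of 22 (45.5%, matched 55.4%), and nerve and Schwann cell genes in 2 of 8 (25.0%, matched 46.5%). Other matrix proteins and proteases stood at 20 of 36 (55.6%, matched 59.2%), adipocyte genes at 4 of 7 (57.1%, matched 54.3%), biliary and simple epithelial genes at 3 of 7 (42.9%, matched 50.8%) and the expressed intestinal columnar genes at 2 of 8 (25.0%, matched 51.2%). Interferon-response genes were methylated in 11 of 28 cases (39.3%, matched 54.0%). In BE replicate 1, where their input level was high, 60.7% of them had a peak, against 42.9% and 46.4% in replicates 2 and 3.

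Cell-cycle genes were methylated in 21 of 43 cases (48.8%, matched 62.7%), and their peaks ranked low, with a median best percentile of 56.2 against 74.1 matched. The difference of -13.8 points was -4.33 with 2 of 3 lists sufficing and -7.47 without BE replicate 1. Mki67, the proliferation marker Ki-67, had 10, 8 and 8 peaks, and Cenpf and Cenpe, proteins of the kinetochore, had 13, 14 and 15 and 9, 11 and 9. Pcna (the replication clamp), Rrm2 (a ribonucleotide reductase subunit), Cdk4, Ccnb1, Plk1 and Cdc20 had none. Pcna stood at 88.9, 109 and 69.4 CPM and Rrm2 at 57.6, 121 and 93.3 CPM.

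The same rule was then applied to untreated esophagus, whose inputs differed in make-up. Summed over 38 striated muscle genes, the NC inputs held between 135509 and 152347 CPM and the BE inputs between 7306 and 9905 CPM. The 20 epithelial keratins summed to between 29131 and 38731 CPM in NC, against 60942 to 64510 CPM in BE. The part of these differences in the peak measures below was not tested. The numbers of peaks were 20531, 19329 and 20462 in the BE lists and 16644, 18864 and 17311 in the NC lists, a mean of 20107 ± 675 against 17606 ± 1139 (SD, n = 3 per group, exact permutation test, two-sided, p = 0.1, the smallest this design allows). The groups did not overlap. The median peak length was 266 ± 14.4 nt in BE and 335 ± 38.8 nt in NC (exact permutation p = 0.1). The share of expressed genes with a peak, 63.5 ± 0.942% against 61.8 ± 2.18%, overlapped between groups (exact permutation p = 0.3). None of 5 such measures passed Benjamini-Hochberg adjustment, with exact permutation p adjusted to between 0.25 and 0.3. Reads per IP library are not given in the files used here, so the IP depth behind each list is unknown. The input libraries held 17471748, 15543460 and 16270167 counts in BE and 11213531, 16863737 and 14686281 in NC. NC replicate 1 had the fewest input counts and the fewest peaks. The part of input depth in the peak number was not tested.

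Over the 12137 genes at 1 CPM or more in both groups, 6221 had a peak in all 6 lists, 183 (1.51%) had one in 3 of 3 BE and 0 of 3 NC lists, and 124 (1.02%) the reverse. The peaks of the 183 genes were weak, with a median best percentile of 31.2 in the BE lists, against 75.5 for genes called in all 6. Eif4b, an initiation factor, had best folds of 3.85, 3.86 and 3.56 in BE, and Morf4l2, a chromatin protein, 3.23, 3.26 and 2.80. The 5th percentile of fold enrichment was 5.66, 3.74 and 4.8 in NC replicates 1, 2 and 3. The folds of both genes lay below it in NC replicates 1 and 3. For NC replicate 2 those of Morf4l2 also lay below it, but of those of Eif4b only 3.56 did. The median fold of a list was 8.92 ± 0.549 in BE and 11.4 ± 2.1 in NC (SD, n = 3 per group, exact permutation p = 0.2). The part of these fold ranges in the class was not tested. App (the amyloid precursor) had 6, 5 and 4 peaks in BE and Vcl (vinculin) 2 in each, and neither had any in NC. Input levels moved in the same direction as the class. By edgeR's quasi-likelihood test with Benjamini-Hochberg adjustment, 100 of the 183 genes were higher in BE and 13 lower, where 21.8% of 13761 genes tested were higher and 21.8% lower. Of the 124 genes with peaks in NC alone, 78 were lower in BE and 14 higher. The peaks were called against the input, so the 2 measures share libraries, and the part of the input level in the class was not tested. Some moved against it: Tgm1 was at 768, 835 and 744 CPM in BE and 147, 170 and 168 CPM in NC, and had its peak in all 3 NC lists and none in BE. Kpna2, a nuclear import receptor, was likewise higher in BE (log2 fold change 1.89 ± 0.13 SE, edgeR adjusted p = 4e-06) with peaks in NC alone.

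List by list over genes expressed in both groups, cell-cycle genes differed most. In BE 61.1 ± 5.99% of 42 genes had a peak and in NC 30.2 ± 3.64% (SD, n = 3 libraries, exact permutation p = 0.1, adjusted 0.8 over 32 lists). The libraries did not overlap, at 54.8%, 61.9% and 66.7% in BE and 26.2%, 33.3% and 31.0% in NC. Their input levels differed as well, since 38 of 43 cell-cycle genes were higher in BE and none lower, with a median log2 fold change of 1.89 against 0.03 over all genes. Mcm5, a subunit of the replicative helicase, had 40.4, 73.9 and 45.7 CPM and 1 weak peak in each BE list, and 6.33, 5.46 and 5.52 CPM and no peak in NC. Mybl2, a cell-cycle transcription factor, had 7, 4 and 6 peaks in BE and none in NC. Collagens had a peak in 74.6 ± 2.75% of 21 genes in BE and 57.1 ± 4.76% in NC, and nerve genes in 33.3 ± 7.22% and 54.2 ± 7.22% of 8 genes (exact permutation p = 0.1 each, adjusted 0.8). Of 22 collagens, 6 were higher in BE and 8 lower. Of the 8 nerve genes none was higher and 5 were lower, with a median log2 fold change of -2.35. The share beside these counts and those of cell-cycle genes was 21.8% higher and 21.8% lower over the 13761 genes tested. Keratins had a peak in 44.4 ± 4.81% of 12 genes in BE and in 33.3% in each NC library (exact permutation p = 0.1, adjusted 0.8). Of the 32 lists, only cell-cycle genes, collagens, nerve genes and keratins reached an exact permutation p of 0.1, the smallest this design allows. None passed adjustment, and with 3 libraries per group none could. The 32 lists include the mitochondrially encoded genes, which had no peak in any library. Adipocyte genes had one in 71.4 ± 14.3% of 7 genes in BE and 95.2 ± 8.25% in NC, with overlapping libraries (exact permutation p = 0.2, adjusted 0.8). For squamous transcription factors, chromatin modifiers and developmental signalling the shares were above 90% in both groups, 92.3%, 96.0% and 92.1% in BE and 91.0%, 94.0% and 93.7% in NC.

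**Figure D4:**
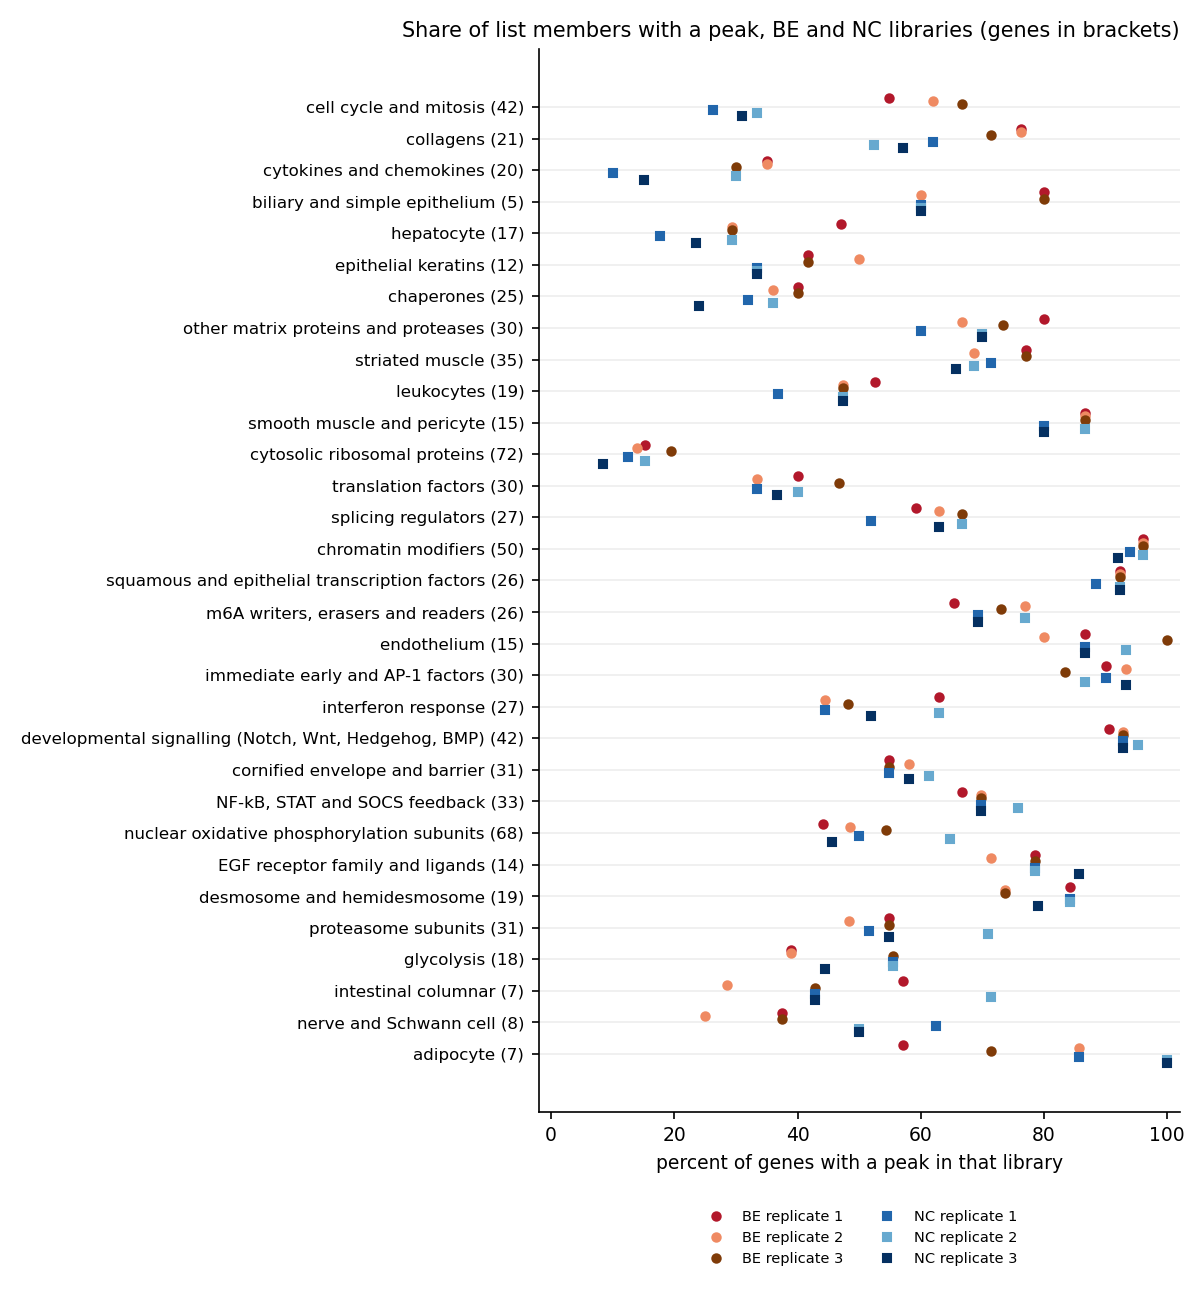
Percent of each list's genes with a peak (x axis) in each BE (circles) and NC (squares) library, over genes at 1 CPM or more in both groups, their number in brackets. Cell-cycle genes lie between 54.8% and 66.7% in BE and between 26.2% and 33.3% in NC, while lists such as chromatin modifiers lie together.

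Expression calls against NC were set beside the m6A class of each gene in BE. Among 7169 methylated genes tested, 23.3% were higher and 21.3% lower in BE, and among 3689 unmethylated genes 24.9% were higher and 20.1% lower, where the background was 21.8% in each direction. Genes entered a class only with at least 1 CPM in BE. Median log2 fold changes were 0.07 in methylated and 0.13 in unmethylated genes. Of the ribosomal protein genes, mostly unmethylated, 68 of 72 were higher in BE, of the cytokines 21 of 31 were higher and 2 lower, and of the desmosomal genes, mostly methylated, 16 of 19 were higher and 2 lower. Striated muscle genes were lower in 33 of 36 cases, and chromatin modifiers were higher in 11 and lower in 11 of 50. Large changes occurred in both classes. Krt16, without a peak, had 867, 1278 and 1624 CPM in BE and 7.49, 6.64 and 4.77 CPM in NC (log2 fold change 7.35 ± 0.35 SE, edgeR adjusted p = 9.3e-06). Col12a1, with 1 peak in each of the 6 lists, had 1085, 1855 and 1876 CPM against 114, 132 and 110 CPM (3.47 ± 0.23 SE, edgeR adjusted p = 1.2e-05). Ttn, methylated in both groups, had 1305, 1605 and 1890 CPM against 29858, 24722 and 28155 CPM (log2 fold change -4.39 ± 0.18 SE, edgeR adjusted p = 9.8e-08). It had 6, 5 and 5 peaks in BE and 2 in each NC list, fewer where its reads were more.

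Liver transcripts marked BE replicate 1 in the IP as well as in the input. Of the 59 hepatocyte genes in the table, 31 had a peak in the list of BE replicate 1, against 6 and 6 in replicates 2 and 3 and 3, 5 and 4 in the NC lists. For 27 of them the peak was in BE replicate 1 alone. The 8 with the highest CPM in that library were Alb (albumin), Apob (the main protein of liver lipoproteins), C3 (complement), Tf (transferrin), Fga and Fgb (fibrinogen chains), Hpx (hemopexin) and Hp (haptoglobin). Alb had 3333, 3.60 and 4.06 CPM and 1 weak peak (4.66-fold) in replicate 1 alone. Apob had 1508, 2.19 and 2.89 CPM, with a peak of 25.4-fold in replicate 1. C3, Fgb and Hpx had no peak at 1356, 1001 and 990 CPM in replicate 1. Of the 58 members at 1 CPM or more in BE replicate 1, 53.4% had a peak there, where genes of matched CPM in that library had 66.0% and all genes 62.1%.

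**Figure D5:**
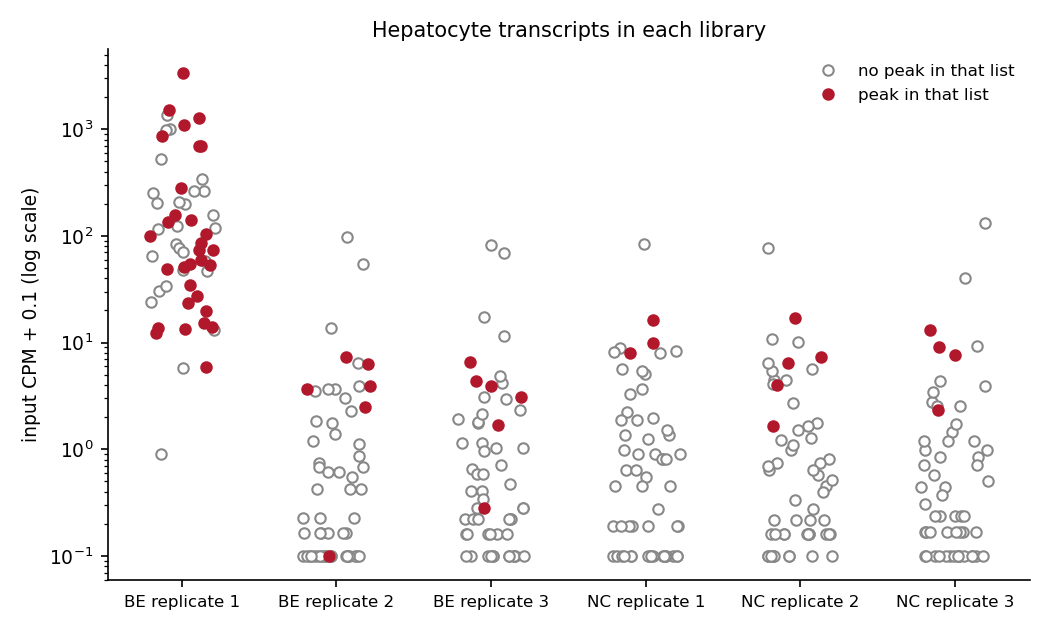
Input CPM plus 0.1 on a log axis (y) of each of 59 hepatocyte genes in the 3 BE and 3 NC libraries (x), filled where the gene had a peak in that library's list; points are spread sideways for visibility. In BE replicate 1 the genes are shifted up and 31 are filled, against 6 or fewer in each other library.

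The methylated class needs a peak in all 3 lists. Of the 59 genes, 23 passed the expression floor (a median of 1 CPM needs a second library at that level) and 3 were methylated: Serpina1, Asgr2 and Hp. A peak in replicate 1 alone was found for 548 genes, in replicate 2 alone for 276 and in replicate 3 alone for 399. Of these, 153 (27.9%), 0 and 1 were at least 10-fold above both other BE inputs. Over all symbols, 435 genes (2.53%) were at 1 CPM or more in replicate 1 and at least 10-fold above both other BE inputs. By the same rule there were 58 and 49 such genes in replicates 2 and 3. Vtn (vitronectin) and Pck1 (the gluconeogenic enzyme) ran the other way: each had a peak in BE replicates 2 and 3 and in every NC list, and none in BE replicate 1, where Vtn had 264 CPM against 3.86 and 3.01, and Pck1 208 CPM against 7.21 and 6.51. Leaving out BE replicate 1 and requiring both other lists gave 59.1% methylated genes.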

How the data were processed

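The authors deposited raw read counts per gene for 6 input libraries and one peak list for each of 6 IP libraries, with a fold enrichment (a ratio to input) and a score for each peak. Trimming with cutadapt 1.9.3 and alignment with HISAT2 2.0.4 are named in the submitters' processing notes; for the peak caller and genome build the sources used here give no name. The score is the authors' own and tops out at one value. CPM was computed here from the deposited counts over all genes. A second set of 6 normalized columns was not used. Peaks were joined to genes by symbol, which failed for 714 to 751 peaks in each BE list. Gene symbols shared by several genes were represented by the gene with the most counts. Expression was tested with edgeR 4.0.16 (quasi-likelihood, TMM, genes passing its low-count filter, BE and NC inputs only, no covariates), after a check on simulated counts. Per-library measures were compared with exact permutation tests. Members, gene lists and tests were chosen with earlier results of these data known. Named genes are the 10 methylated and 10 unmethylated genes with the highest median BE CPM, the 8 methylated genes with the most peaks and the 8 with the highest percentile, the 3 methylated and 3 unmethylated members of each list with the highest CPM, 8 liver genes, 5 genes for each class change and the m6A machinery. Other genes were named after their values were seen. One gene that this rule names is not reported here.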

Additional observations from a re-analysis of the deposited data

How the results depend on the processing

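The share of methylated genes was 61.0% with a floor of 5 CPM, 46.0% without a floor, 63.5% when 2 of 3 lists sufficed, 36.0% with peaks above each list's median fold enrichment only and 51.7% with a score of at least 100. The unmethylated share was 25.3%, 40.2%, 48.3% and 34.4% under the floor of 5 CPM, no floor, peaks above the median fold and the score. Leaving out 1 BE replicate gave 56.3% to 59.1% methylated and 32.0% to 32.9% unmethylated. Matching peaks by Ensembl ID as well, added after seeing the data, gave 28.1% unmethylated. Peaks per methylated gene were 1.78 with peaks above the median fold, 2.23 with the score and 2.34 to 2.41 without 1 replicate. The liver genes with a peak in BE replicate 1 alone were 17 with peaks above the median fold, and 5 list members were methylated without that replicate. Collagens went to -10.9 points with peaks above the median fold. For single lists, 91 further differences from the matched share moved by more than their replicate spread. With peaks above the median fold, other matrix proteins went from -3.62 to 5.28 points while biliary genes (-7.96) and adipocyte genes (2.86) also changed sign. Leukocytes, at -9.98 points, ranged from -6.66 with the floor of 5 CPM to -17.0 when 2 of 3 lists sufficed. The counts of lists above and below the matched share, the BE against NC comparisons and the counts of expression calls moved by less than 1.5 times or less than their replicate spread under the alternatives run for them. Replicate numbers did not pair the samples (correlations of deviations -0.04, 0.01 and -0.07); with the replicate block 2540 genes were higher and 2683 lower, against 2999 and 2996. CPM per kb was not run, since transcript lengths of the files' build were not used here.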

Other observations

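Genes were also grouped into 18 families by symbol, after the values were seen. In 9 families the methylated share lay at least 10 points above that of genes in the same abundance bins, in 2 at least 10 points below, and in 7 within 10 points. Of 210 expressed zinc finger genes with a Zfp symbol, 182 (86.7%) were methylated, where genes in the same abundance bins stood at 54.8%. All 36 Zbtb genes, transcription factors with a BTB domain, and all 8 expressed claudins, the proteins of tight junctions, were methylated, with matched shares of 57.2% and 46.1%. None of the 19 expressed peroxiredoxins and glutathione transferases, antioxidant and detoxifying enzymes, had a peak in 3 of 3 lists (matched 55.8%), and 14 had none at all. Annexins, calcium-dependent membrane-binding proteins, were methylated in 3 of 10 cases (matched 60.8%). Solute carriers stood at 115 of 219 (52.5%, matched 55.3%) and Rab GTPases at 33 of 57 (57.9%, matched 56.3%). Small mitochondrial ribosomal proteins stood at 21 of 29 (72.4%, matched 60.3%) and large ones at 24 of 42 (57.1%, matched 60.0%).

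Below the expression floor, 343 genes had a peak in 3 of 3 BE lists, and 162 of them had no count in at least 1 BE input library. Il6st, the shared receptor subunit of the interleukin-6 family, was listed at 0 counts in all 3 BE inputs with best folds of 16.7, 22.5 and 17.0, and had a peak in every NC list too. Whether the count table and the peak lists use the same gene models is not given in the files, so a count of 0 beside a peak need not mean that the transcript was absent. Il24, a cytokine of the interleukin-10 family, had 17.4, 36.7 and 29.5 CPM in BE without a peak, and 1 peak in each NC list at 0.178, 0.119 and 0 CPM.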
